A study of Sus scrofa with 12 samples.

Results

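The 8 genes examined in pig blood mononuclear cells were CACNA2D3, IQGAP2, OSBPL10, OLIG1, SPNS3, TSPAN3, OCIAD2 and PLA2G2D, of 7480 genes in the deposited table. They were selected on their deep falls in libraries treated with Salmonella, or on their large rises in libraries that also received a miR-124 sponge. Their values in these 2 comparisons, and in that of sponge plus Salmonella with control, which uses the same columns, are therefore given as a description, without a test. The study compared 12 libraries in 3 groups of 4, labelled as PBMC, the lymphocytes and monocytes of blood. The control libraries came from untreated samples, the Salmonella libraries from samples treated with Salmonella, and the sponge plus Salmonella libraries from samples given both a miR-124 sponge and Salmonella. All cells came from crossbred Duroc × Landrace × Yorkshire piglets of 4 weeks of age, and were collected 12 h after treatment. The series text names 20 piglets of both sexes and does not tie a library to an animal. It also does not say clearly whether the animals or their drawn blood were treated. P-values of other genes therefore measure only the spread between these libraries, which may be technical. No group received the sponge without Salmonella, and no group received a control oligonucleotide. The titles of the sponge plus Salmonella libraries name miR-124 and Salmonella without the word sponge, and the group was taken from the treatment label.

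A microRNA is a short RNA that pairs with messenger RNAs and lowers their amount or translation. An oligonucleotide sponge holds binding sites for a microRNA and so keeps it from its targets. The 8 genes have no shared pathway. CACNA2D3 encodes an auxiliary subunit of voltage-gated calcium channels, and IQGAP2 a scaffold that binds small GTPases, calmodulin and actin. OSBPL10 belongs to the oxysterol-binding proteins, which carry lipids between membranes. OLIG1 is a basic helix-loop-helix transcription factor best known from oligodendrocytes. SPNS3 is a membrane transporter of the spinster family, of which SPNS2 exports sphingosine 1-phosphate. TSPAN3 is a tetraspanin, a protein that organises other membrane proteins. OCIAD2 is a mitochondrial OCIA domain protein with a role in the assembly of respiratory complex III. PLA2G2D is a secreted phospholipase A2 known from antigen-presenting cells of lymphoid tissue, where it releases lipids that dampen inflammation.

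The deposited values were on a log scale whose base was not stated and was taken as 2, so a difference of 1 is read as a 2-fold change. They ran from 2.13 to 15.01, and the library medians from 5.11 to 5.31. The depth of each library is unknown, since the table holds no read counts. Libraries of the same group correlated at r = 0.953 to 0.987 across genes, and libraries of different groups at 0.857 to 0.964. Ties between genes within a library were common only with the sponge, at 65.1% to 71.4% of values, and were at most 0.0802% elsewhere. For the 8 genes, 9 of 32 values with the sponge were tied, against 0 of 32 in control and 0 of 32 with Salmonella. Treatment with the sponge and this difference in the table cannot be told apart. Salmonella replicate 1 had the lowest mean correlation with its own group, 0.962, and was the highest Salmonella library for 7 of the 8 genes. Sponge plus Salmonella replicate 1 was the lowest of its group for 5 of the 8.

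**Figure D1:**
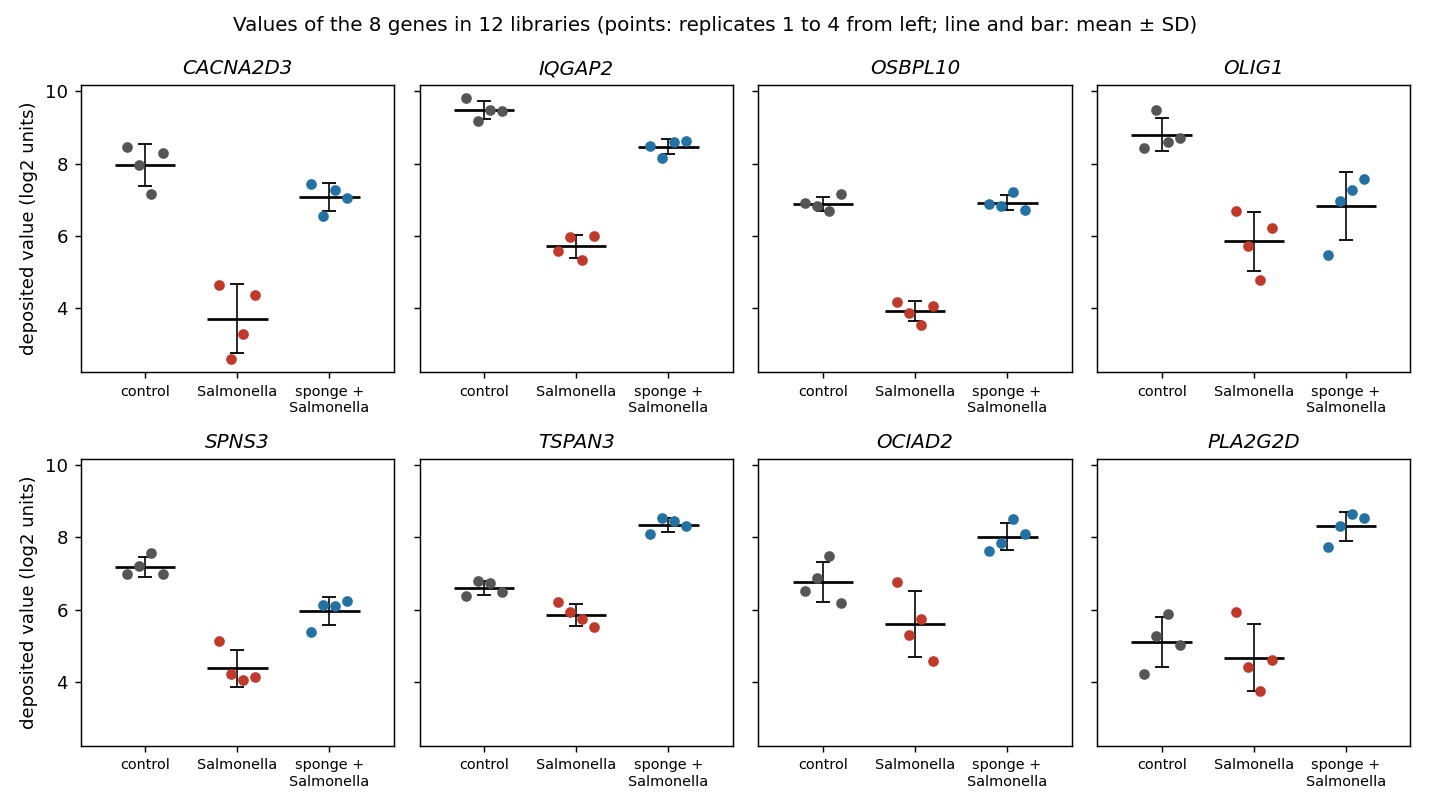
Deposited log2 values of the 8 genes (vertical axis) in the control, Salmonella and sponge plus Salmonella groups (horizontal axis), with each library as a point and the mean ± SD of 4 libraries as a line and bar. CACNA2D3, IQGAP2, OSBPL10, OLIG1 and SPNS3 have their Salmonella points below every control point, whereas TSPAN3, OCIAD2 and PLA2G2D have their sponge plus Salmonella points above every control point.

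CACNA2D3, the calcium channel subunit, had the deepest fall of all genes with Salmonella. Its values in control replicates 1 to 4 were 8.46, 7.96, 7.17 and 8.28. With Salmonella they were 4.64, 2.60, 3.28 and 4.36. With the sponge and Salmonella they were 7.43, 6.55, 7.28 and 7.04. The highest Salmonella library stood 2.53 below the lowest control library and 1.91 below the lowest sponge plus Salmonella library, and the control and sponge plus Salmonella libraries overlapped. The group means were 7.97 ± 0.57, 3.72 ± 0.95 and 7.08 ± 0.39 (SD, n = 4 each). The log2 difference was -4.25 ± 0.41 (SE) between Salmonella and control, a 19.0-fold lower level. The sponge plus Salmonella mean was 3.36 ± 0.41 above the Salmonella mean, or 10.2-fold higher. In bulk samples like these, fewer cells of a type and less RNA per cell cannot be told apart.

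IQGAP2, the scaffold protein, had the second deepest fall and regained most of it. Untreated libraries held 9.81, 9.18, 9.48 and 9.46. Salmonella libraries held 5.59, 5.96, 5.34 and 6.0, and libraries with the sponge 8.48, 8.17, 8.59 and 8.64. The 3 groups did not overlap, and the sponge plus Salmonella libraries lay between the control and the Salmonella libraries. Salmonella and control differed by -3.76 ± 0.20, 13.6-fold lower. The difference was 2.75 ± 0.20 between sponge plus Salmonella and Salmonella, 6.71-fold higher.

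OSBPL10, the lipid carrier, had a mean near that of control again with the sponge. Its control values were 6.92, 6.82, 6.69 and 7.15. The Salmonella values were 4.18, 3.87, 3.55 and 4.07. With the sponge as well they were 6.89, 6.82, 7.22 and 6.73. Every Salmonella library was at least 2.51 below every library of the other groups, and those groups overlapped. The means were 6.89 ± 0.19, 3.92 ± 0.27 and 6.92 ± 0.21 (SD, n = 4 each). The log2 difference was -2.98 ± 0.22 with Salmonella, 7.87-fold lower, and 3.0 ± 0.22 with the sponge over Salmonella, 7.99-fold higher.

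OLIG1, the transcription factor, had a fall near that of OSBPL10 in size and regained less of it. OLIG1 stood at 8.43, 9.47, 8.60 and 8.70 in control. It stood at 6.70, 5.74, 4.79 and 6.21 with Salmonella, and with the sponge added at 5.47, 6.98, 7.28 and 7.58. All control libraries were above all others, and sponge plus Salmonella replicate 1 was below 3 of the 4 Salmonella libraries. Its Salmonella mean differed from control by -2.94 ± 0.45, 7.68-fold lower. With the sponge the mean was 0.97 ± 0.45 above the Salmonella mean, or 1.42 without sponge plus Salmonella replicate 1. OLIG1 was the only one of the 8 genes whose sponge plus Salmonella and Salmonella libraries overlapped.

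SPNS3, the spinster transporter, regained part of its fall. Across the control libraries it had 6.98, 7.20, 7.57 and 7.0. Across the Salmonella libraries it had 5.15, 4.22, 4.05 and 4.14, and across those with the sponge 5.40, 6.13, 6.11 and 6.25. The 3 groups did not overlap, but only 0.25 separated the lowest sponge plus Salmonella library from the highest Salmonella library, and both were replicate 1 of their group. SPNS3 differed by -2.80 ± 0.29 with Salmonella, 6.94-fold lower, and by 1.58 ± 0.29 with the sponge over Salmonella, 2.99-fold higher.

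TSPAN3, the tetraspanin, fell little with Salmonella and stood above control with the sponge. Its control values were 6.37, 6.80, 6.74 and 6.50. The Salmonella values were 6.22, 5.94, 5.74 and 5.52. In the sponge plus Salmonella libraries they were 8.08, 8.53, 8.44 and 8.31. The groups did not overlap, with a gap of 0.147 between control and Salmonella and of 1.29 between sponge plus Salmonella and control. The log2 difference was -0.75 ± 0.20 with Salmonella, 1.68-fold lower. It was 2.48 ± 0.20 with the sponge over Salmonella, 5.59-fold higher.

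OCIAD2, the mitochondrial protein, had control and Salmonella libraries that overlapped. Values of 6.51, 6.88, 7.48 and 6.18 were found in control. Those with Salmonella were 6.77, 5.32, 5.75 and 4.59, and those with the sponge and Salmonella 7.64, 7.84, 8.50 and 8.11. All sponge plus Salmonella libraries were above all others, the nearest being control replicate 3, which was 0.156 lower. OCIAD2 differed by -1.16 ± 0.39 with Salmonella and by -1.54 without Salmonella replicate 1. The difference was 2.41 ± 0.39 with the sponge over Salmonella, 5.33-fold higher.

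PLA2G2D, the secreted phospholipase, had a difference between Salmonella and control that was within the spread of the libraries. Its control values were 4.22, 5.29, 5.89 and 5.03. The Salmonella values were 5.95, 4.41, 3.74 and 4.61. Libraries with the sponge had 7.74, 8.32, 8.64 and 8.54. Control and Salmonella libraries overlapped over most of their ranges, and Salmonella replicate 1 was above every control library. The Salmonella mean was 0.43 ± 0.43 below the control mean, and the difference was -0.86 without Salmonella replicate 1 and -0.12 without Salmonella replicate 3. With the sponge over Salmonella the log2 difference was 3.63 ± 0.43, 12.4-fold higher and the largest rise among the 7480 genes.

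The working name of the set, genes lost with Salmonella and restored with the sponge, therefore described some members and not others. CACNA2D3, IQGAP2, OSBPL10, OLIG1 and SPNS3 were ranks 1, 2, 5, 6 and 10 among all falls with Salmonella. TSPAN3, OCIAD2 and PLA2G2D were only at ranks 851, 350 and 1492 of those falls. Among the rises with the sponge over Salmonella, PLA2G2D, CACNA2D3, OSBPL10, IQGAP2, TSPAN3 and OCIAD2 were at ranks 1, 3, 6, 9, 14 and 16. SPNS3 was at rank 114 and OLIG1 at rank 424. At the edge of the choice, SPNS3 fell by 2.80 and the next gene, CD79A, fell by 2.78 without being in the set. PI3, FCER1A, GZMK, NLRP12 and ALOX15 had falls as deep as those of the members and were not chosen.

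For 6 of the 8 genes all Salmonella libraries were below all control libraries, as they were for 19.9% of all genes. For 7 of the 8 all sponge plus Salmonella libraries were above all Salmonella libraries, against 10.6% of all genes, with OLIG1 as the exception. The median difference of the 8 was -2.87 and then 2.61, beside -0.0158 and -0.0381 for all genes. These values restate how the genes were chosen, and nothing is read from the shares. OCIAD2, whose groups overlapped with Salmonella, differed there by -0.82 to -1.54 when 1 library was left out.

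The comparison of sponge plus Salmonella with control asks whether cells with the sponge were back at the untreated level. It was not used to choose the genes, but both of its groups were. Genes taken for deep falls are favoured by high control values, and those taken for large rises by high sponge values, so the choice bears on the direction of these differences and no p is given for them. All sponge plus Salmonella libraries were above all control libraries for 3 of the 8 genes and below them for 3, where 17.3% and 22.5% of all genes were so. The median difference of the 8 was -0.434, against -0.0742 for all genes. Among all genes, limma with Benjamini-Hochberg adjustment called 17.9% higher and 23% lower, so 40.9% differed. With each library centred on its median, 1062 genes were higher and 2569 lower, against 1336 and 1721 without centring, and centring moved the differences by 0.123. The directions of the 6 genes without overlap were the same under centring.

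The mean of PLA2G2D was 3.20 ± 0.43 (SE) above that of control, 9.20-fold, with the highest control library at 5.89 and the lowest sponge plus Salmonella library at 7.74. TSPAN3 stood 1.74 ± 0.20 above control, 3.33-fold, and OCIAD2 1.26 ± 0.39 above it, 2.39-fold. Over the alternatives the difference ran from 2.91 to 3.46 for PLA2G2D, from 1.61 to 1.82 for TSPAN3 and from 1.06 to 1.5 for OCIAD2.

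Below control were OLIG1 with a difference of -1.97 ± 0.45, SPNS3 with -1.21 ± 0.29 and IQGAP2 with -1.01 ± 0.20. All 4 sponge plus Salmonella libraries were below all 4 control libraries for each of these genes. CACNA2D3 had a difference of -0.89 ± 0.41 with overlapping groups, and of -1.16 to -0.71 over the alternatives. OSBPL10 differed by 0.02 ± 0.22, and by -0.10 to 0.11 over the alternatives.

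As a share of the fall on the log2 scale, the sponge plus Salmonella mean of OSBPL10 had regained 101%, with its libraries between 94.6% and 111%. CACNA2D3 had regained 79.0% (66.6% to 87.5%) and IQGAP2 73.0% (65.1% to 77.5%). SPNS3 had regained 56.6% (36.1% to 66.6%). OLIG1 had regained 32.8%, with replicate 1 at -13.3% and the highest library at 58.4%. The libraries of OSBPL10 and those of OLIG1 did not overlap on this scale. Differences between the genes in this share were not tested.

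**Figure D2:**
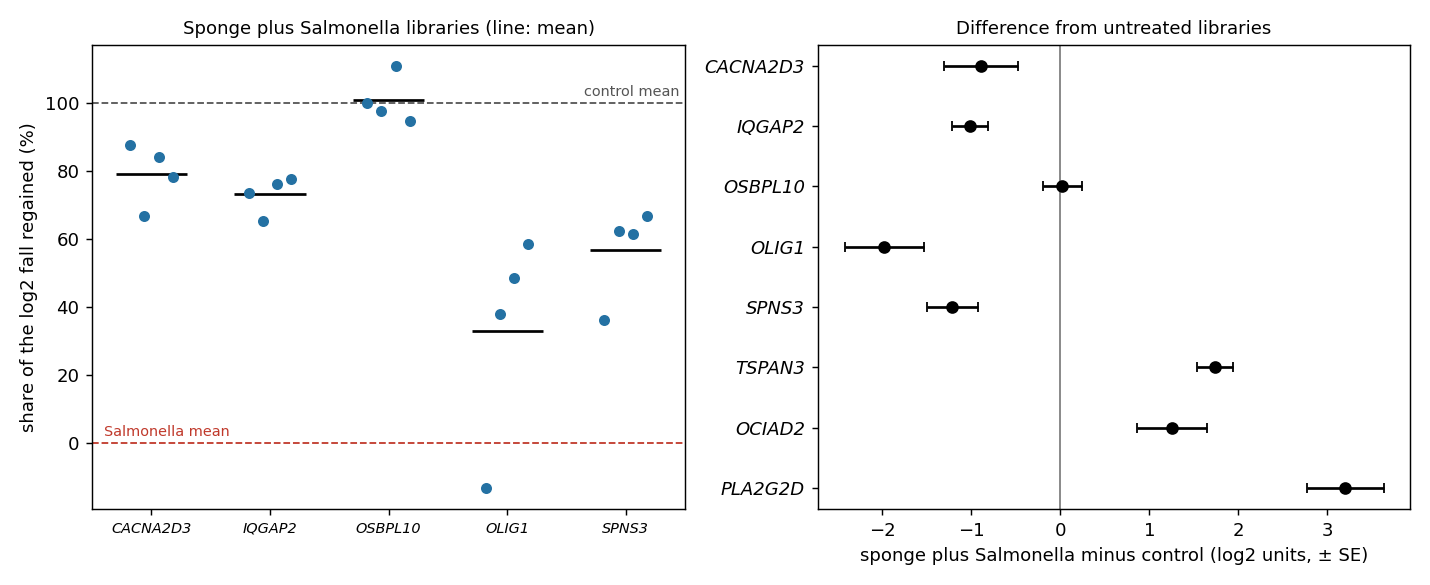
Left, the share of the log2 fall with Salmonella that each sponge plus Salmonella library had regained (vertical axis, %) for the 5 deeply falling genes, with dashed lines at the Salmonella and control means. Right, the difference between sponge plus Salmonella and control (log2 units, ± SE) for the 8 genes, which lies below 0 for OLIG1, SPNS3, IQGAP2 and CACNA2D3, at 0.02 for OSBPL10 and above 0 for TSPAN3, OCIAD2 and PLA2G2D.

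The Salmonella means of CACNA2D3, OSBPL10 and SPNS3 were below 4.56, the 25th percentile of all values in the table. Those of CACNA2D3 and OSBPL10 were also below the 5th percentile, 4.31. The number of reads behind such low values is unknown.

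Libraries of the same group also differed from each other, and these deviations from the group means did not choose the genes. Over the 12 deviations, Pearson's r between pairs of the 8 genes ran from -0.464 to 0.891 with a median of 0.265, and 21 of 28 pairs were above 0. SPNS3 and PLA2G2D had the highest value, 0.891, and SPNS3 and TSPAN3 reached 0.808. IQGAP2 and TSPAN3 had the lowest. CACNA2D3 and OSBPL10 reached 0.655. The 10 pairs among OLIG1, SPNS3, TSPAN3, OCIAD2 and PLA2G2D ran from 0.304 to 0.891 with a median of 0.736, against a median of 0.0856 for the other 18 pairs. This grouping was made after the values were seen. Without Salmonella replicate 1, which was high for most of the genes, the 10 pairs ran from 0.0222 to 0.783 with a median of 0.599, and the others had a median of -0.116. Without sponge plus Salmonella replicate 1 the median of the 10 was 0.714. Each correlation is a description over 12 libraries of unknown depth, and ties between genes were common only in the sponge plus Salmonella libraries.

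**Figure D3:**
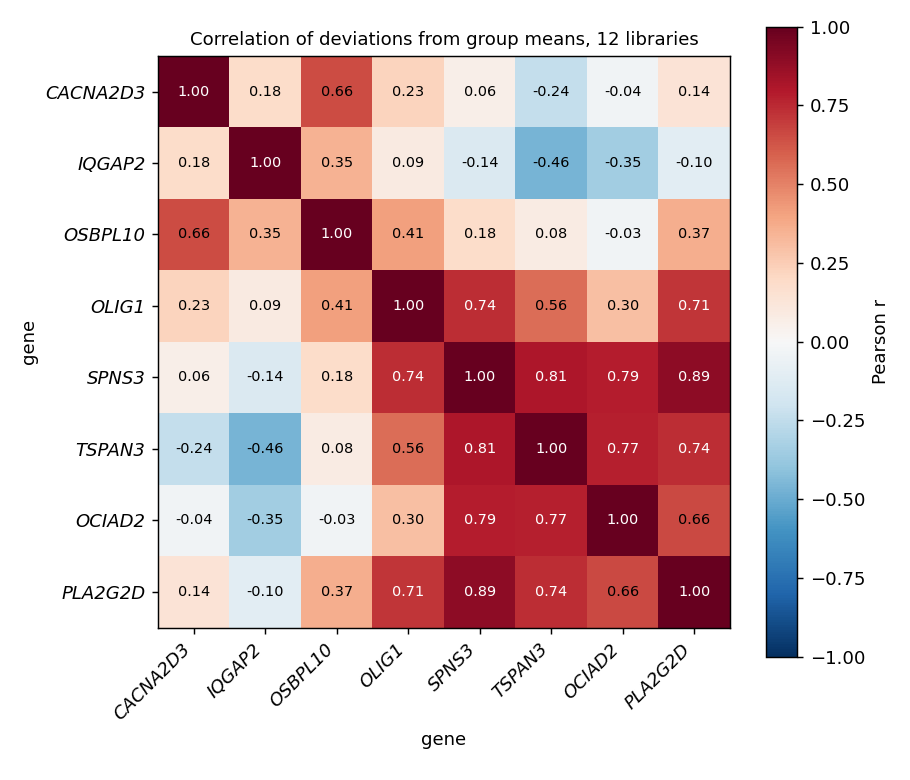
Pearson's r between the 8 genes (both axes) over the deviations of 12 libraries from their group means, with colour from -1 to 1. The block of OLIG1, SPNS3, TSPAN3, OCIAD2 and PLA2G2D holds values from 0.30 to 0.89, whereas IQGAP2 is at or below 0.09 with each of these genes.

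Over all 12 values, r includes the differences between groups on which the 8 genes were chosen. The genes most like each member therefore in part restate that choice. CD79A was among the 3 genes nearest to CACNA2D3 (r = 0.965), and IQGAP2 was nearest to it (0.977). CD79A is a surface protein of B cells that takes part in signalling from the antigen receptor. OSBPL10 was nearest to SWAP70 (0.981), a protein known from B cells that acts on Rac and actin. SWAP70 had means of 8.94, 7.66 and 8.97 in control, Salmonella and sponge plus Salmonella, with differences of -1.29 and then 1.32. SPNS3 was nearest to PSME4 (0.973) and OLIG1 to ACTR1B (0.953). TSPAN3 was nearest to RPS6KA3 (0.967) and OCIAD2 to PEBP1 (0.973). PLA2G2D was nearest to MAP3K1 (0.967), which differed by -0.22 with Salmonella and by 2.18 with the sponge over Salmonella. PLA2G2D was itself the third nearest gene to TSPAN3 (0.952). All of these are descriptions over 12 libraries.

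Over the deviations alone, the nearest genes were others. Each was taken as 1 of the 3 highest r among all other genes, which favours high values. They were HR for CACNA2D3 (r = 0.880), B3GALT6 for IQGAP2 (0.923) and MCCC1 for OLIG1 (0.907). SLC25A1 was among the 3 nearest to OSBPL10 (0.828). The nearest were TERF1 for SPNS3 (0.944), TRIM56 for TSPAN3 (0.964), RORA for OCIAD2 (0.961) and N4BP2 for PLA2G2D (0.978). WWP1 was among the 3 nearest to OCIAD2 both over the 12 values (0.965) and over the deviations (0.957).

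Markers of blood cell types moved between the same groups. Of all genes, 15.7% were higher and 17.9% lower with Salmonella, and 11.9% were higher and 13.2% lower with the sponge over Salmonella. Markers of the labelled cell type were found, with control means of 11.95 for CD79A of B cells and 7.79 for CD3E of T cells, although CD3D, another T cell marker, averaged 4.29. Markers of other blood cells were found as well. Their list means in control ran from 8.85 to 9.77 for erythroid cells, 7.92 to 8.23 for platelets and 6.59 to 7.13 for neutrophils. The purity of the cells was not tested. Of 12 listed B cell markers 4 were measured, and all 4 were lower with Salmonella and higher with the sponge over Salmonella (limma, adjusted over all genes), with medians of -2.29 and 1.66. CD79A differed by -2.78 and then 2.03, CXCR5 by -2.47 and 1.76, and TNFRSF13C by -1.61 and 0.94. The mean of the list ran from 8.80 to 9.46 in control libraries, from 6.67 to 6.85 with Salmonella and from 8.09 to 8.56 with the sponge and Salmonella. Of 12 measured T cell markers, 11 were lower with Salmonella (10 to 11 over the alternatives) and 10 were higher with the sponge over Salmonella (8 to 10). The T cell list means ran from 9.02 to 9.33, from 7.62 to 8.13 and from 8.42 to 9.03. Of 6 NK and cytotoxic cell markers, 5 were lower with Salmonella and 2 were higher with the sponge, or 1 without Salmonella replicate 2 or 4 or sponge plus Salmonella replicate 4. Of 9 monocyte markers, 6 were higher with Salmonella and 5 were lower with the sponge, with list means of 8.57 to 9.18, 10.2 to 10.5 and 9.50 to 9.96. The number of monocyte markers lower with the sponge was 2 without Salmonella replicate 3 or sponge plus Salmonella replicate 4, and 3 without Salmonella replicate 1 or 4 or sponge plus Salmonella replicate 3.

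Of 5 measured eosinophil and basophil markers, 4 were lower with Salmonella and 2 were higher with the sponge over Salmonella. Over the alternatives 3 to 4 were lower with Salmonella and 1 to 3 higher with the sponge. The list means ran from 5.99 to 6.43 in control, from 4.62 to 5.05 with Salmonella and from 5.13 to 6.04 with the sponge. Of 6 dendritic cell markers, 3 were lower with Salmonella and 1 was higher with the sponge, or 2 without control replicate 3 or sponge plus Salmonella replicate 2. Of 8 neutrophil markers, 2 were higher and 2 lower with Salmonella and 1 was lower with the sponge, where the alternatives gave 1 to 3 higher, 2 to 3 lower and 1 to 2 lower. For platelets 5 of 6 were higher with Salmonella (3 to 5 over the alternatives), and 2 were higher and 1 lower with the sponge (1 to 2 and 0 to 1). For erythroid cells 1 of 3 was higher with Salmonella (0 to 3) and 3 of 3 were lower with the sponge (2 to 3). No marker was listed at 0, since the lowest value in the table was 2.13. Every measured B cell marker and most T cell markers moved in the direction of CACNA2D3, IQGAP2, OSBPL10 and SPNS3. Most eosinophil and basophil markers, and most NK and cytotoxic cell markers, were lower with Salmonella, but a minority were higher with the sponge. The part of the markers' cell types in the values of these genes was not tested. No marker list had the pattern of TSPAN3, OCIAD2 and PLA2G2D, with all sponge plus Salmonella libraries above both other groups in the list mean. Of the family lists described below, the tetraspanins had it in the list mean, at 5.88 to 6.01 against up to 5.76 in control and 5.79 with Salmonella. The median difference of these 8 genes from control was only 0.0604, and that of TSPAN13 alone was 2.68. The genes of complex III and its assembly had it narrowly in the list mean, at 8.75 to 9.04 against up to 8.74 and 8.72. Of these 9 genes, UQCRH and UQCRC2 were 3.48 and 2.60 above control and 3 were lower than control, with a median of -0.177.

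Close relatives of the 8 genes were compared in the same fit, where 33.6% of all genes differed between Salmonella and control and 25% between sponge plus Salmonella and Salmonella. The group means of CACNA2D1, OLIG3, SPNS2, PLA2G2E and PLA2G2F were from 4.40 to 4.87, near 4.56, the 25th percentile of all values. A fall may not show at such low levels. IQGAP1, which shares the scaffold's domains with IQGAP2 and is found in most cell types, rose where IQGAP2 fell. Its means were 7.40 ± 0.84, 9.22 ± 0.53 and 9.88 ± 0.27 (SD, n = 4 each) in control, Salmonella and sponge plus Salmonella. It was 1.82 ± 0.35 higher with Salmonella (limma adjusted p = 0.0011) and differed by a further 0.66 ± 0.35 with the sponge (adjusted p = 0.171). IQGAP3 differed by 0.11 and -0.10, and neither passed. With the GTPases and other partners, 6 of 13 listed genes were measured, of which 2 were higher and 1 was lower with Salmonella (0 to 2 lower over the alternatives). One was higher with the sponge over Salmonella, CDH1, a cadherin.

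CACNA2D1, the only other measured subunit of the class of CACNA2D3, had means of 4.43, 4.60 and 4.59, and neither difference passed. CACNA2D2 and CACNA2D4 were not among the symbols of the table. Of 13 measured calcium channel genes out of 25 listed, 1 was higher and 3 were lower with Salmonella, with a median of -0.104. Over the alternatives 0 to 1 were higher and 2 to 5 lower. CACNG6, a gamma subunit, fell by 1.62 (limma adjusted p = 0.00293) and stayed there with the sponge, with a difference of -0.07 from Salmonella. CACNB4, a beta subunit, fell by 0.56 (adjusted p = 0.0163) and was 1.0 higher with the sponge (adjusted p = 8.49e-04), the 1 gene of the list that was higher in that comparison. Its means were low, at 4.54, 3.98 and 4.98 in control, Salmonella and sponge plus Salmonella. With only genes of a mean of at least 5 kept, 0 genes of the list were higher there.

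OSBPL10 had 6 measured relatives, whose differences between Salmonella and control ran from -0.659 for OSBPL7 to 1.56 for OSBPL11. Of these 1 was higher and 2 were lower, OSBPL7 and OSBP. OSBP had means of 9.73, 9.17 and 9.67 in control, Salmonella and sponge plus Salmonella. Its fall of 0.56 passed (limma adjusted p = 0.0247), and its difference of 0.50 with the sponge over Salmonella did not (adjusted p = 0.0537). Neither of the 2 falls passed without control replicate 1. OSBPL10 was chosen for its deep fall, so its distance from its relatives, with a fall of 2.98, restates that choice. OSBPL11 rose where OSBPL10 fell, with means of 5.16, 6.72 and 7.63 (limma adjusted p = 0.00124 with Salmonella). Its further difference of 0.91 with the sponge (adjusted p = 0.0393) did not pass without any 1 of the sponge plus Salmonella libraries or of Salmonella replicates 2 to 4, with adjusted p between 0.0567 and 0.119. The call of OSBPL7 ended without control replicate 1 or 3 or Salmonella replicate 3, with adjusted p of 0.0511, 0.0567 and 0.0715. VAPA, the membrane anchor that many of these proteins bind, differed by 0.18 with Salmonella and by 1.33 with the sponge over Salmonella (adjusted p = 6.1e-04). Of the 10 measured genes of the list, 2 were higher and 2 lower with Salmonella, or 0 lower without control replicate 1 and 1 lower without control replicate 2 or Salmonella replicate 3 or 4.

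OLIG3, the relative of OLIG1 in the table, had means of 4.76, 4.80 and 4.64 and did not pass in any comparison. Of 13 measured basic helix-loop-helix genes, 3 were higher and 4 lower with Salmonella, and 2 were higher with the sponge. With median centring the count with Salmonella was 1 higher and 4 lower. It was also 1 higher without any 1 of Salmonella replicates 1 to 3 or control replicates 1, 2 and 4, and over the alternatives 1 to 3 were higher with the sponge. MXD4, which opposes MYC, fell by 1.55 (limma adjusted p = 3.47e-05) and was 0.80 higher with the sponge over Salmonella (adjusted p = 0.00822), and its difference from control was then -0.75 (adjusted p = 0.00698). It therefore had the same order of groups as OLIG1, IQGAP2 and SPNS3.

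SPNS2, the sphingosine 1-phosphate exporter next to SPNS3 on the chromosome, differed by 0.42 and -0.18, and neither passed. Of 5 measured genes of the spinster family and this lipid's pathway, 1 was higher and 2 were lower with Salmonella, and none was higher without Salmonella replicate 2. SGPP2, a phosphatase that acts on sphingosine 1-phosphate, fell by 1.72 (limma adjusted p = 2.5e-04) and was 1.34 higher with the sponge over Salmonella (adjusted p = 0.00314). It was the 1 gene of the list that passed in that comparison.

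Tetraspanins moved in both directions. Of 8 measured relatives of TSPAN3, 3 were higher and 2 lower with Salmonella, from -1.06 for TSPAN2 to 1.21 for TSPAN14, and with the sponge over Salmonella 3 were again higher and 2 lower. TSPAN13 was the nearest to TSPAN3 in size, with means of 3.97, 4.14 and 6.65, and was 2.52 ± 0.34 higher with the sponge over Salmonella (limma adjusted p = 2.93e-04) and 2.68 above control (adjusted p = 8.1e-05). TSPAN7 went the other way, 0.95 higher with Salmonella and 1.08 lower with the sponge (difference -1.08, adjusted p = 0.00382). Over the alternatives 1 to 3 tetraspanins were higher with the sponge and 1 to 2 lower.

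OCIAD1, the near relative of OCIAD2, was not among the symbols of the table. Of 9 measured genes of complex III and its assembly, 3 were higher and 3 lower with Salmonella, and 3 were higher and 1 lower with the sponge over Salmonella, or 2 lower without replicate 1 of Salmonella or of sponge plus Salmonella. UQCRH, a complex III subunit, had means of 5.08, 6.71 and 8.56 and was 1.85 ± 0.48 higher with the sponge over Salmonella (limma adjusted p = 0.013). Its rise of 1.63 with Salmonella (adjusted p = 0.0177) did not pass without control replicate 1 (1.49, adjusted p = 0.0511). UQCRC2, another subunit, rose by 1.34 with Salmonella (adjusted p = 0.00957) and by a further 1.27 with the sponge (adjusted p = 0.0186), the latter not without Salmonella replicate 4 (adjusted p = 0.0616). PHB, a membrane scaffold of mitochondria, fell by 1.30 (adjusted p = 0.00177) and was not regained, with a difference of 0.16 from Salmonella.

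Among the measured phospholipases A2, PLA2G2D had the largest rise with the sponge over Salmonella, the comparison that chose it. The differences of its 9 measured relatives with the sponge over Salmonella ran from -0.782 for PLA2G7 to 1.08 for PLA2G1B, the 1 that passed (limma adjusted p = 6.1e-04). PLA2G1B had low means of 4.26, 3.69 and 4.77 in control, Salmonella and sponge plus Salmonella. PLA2G7 passed as lower without sponge plus Salmonella replicate 1 (-1.17, adjusted p = 0.0404). PLA2G2E and PLA2G2F, group II enzymes that flank PLA2G2D on the chromosome, differed by -0.06 and -0.09 and neither passed. In the wider list of 18 measured phospholipases and eicosanoid enzymes, 2 were higher and 4 lower with Salmonella, and 2 were higher and 1 was lower with the sponge. With the sponge, 4 were higher without Salmonella replicate 1, and without sponge plus Salmonella replicates 1 and 4, each left out alone, 3 and 2 were lower. The second gene higher with the sponge was ALOX15, a lipoxygenase that acts on the fatty acids such enzymes release. It fell by 2.82 with Salmonella (adjusted p = 5.71e-05) and was 1.55 higher with the sponge (adjusted p = 0.00825). PTGS2, the inducible cyclooxygenase, rose by 2.08 with Salmonella (adjusted p = 9.4e-05) and differed by -0.15 with the sponge.

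All 8 genes matched RefSeq gene records of Sscrofa11.1, the build that the submitters name, and all are protein-coding. CACNA2D3, OSBPL10 and OLIG1 are on chromosome 13, at 36222295 to 37025119, 17651168 to 18032288 and 196644065 to 196646406. IQGAP2 is on chromosome 2 (85294423 to 85633645), SPNS3 on chromosome 12 (50388973 to 50445297) and TSPAN3 on chromosome 7 (57162080 to 57187515). OCIAD2 is on chromosome 8 (38771281 to 38793511) and PLA2G2D on chromosome 6 (78391063 to 78397394). Their lengths ran from 2342 bases for OLIG1 to 802825 bases for CACNA2D3.

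The nearest measured gene on each side within 1 Mb gave 15 neighbours, of which 2 were higher and 3 lower with Salmonella, where 33.6% of all genes differed, so that their share was near that of all genes. With the sponge over Salmonella 1 of the 15 differed, against 25% of all genes. It was IL10RB beside OLIG1 (-0.80, limma adjusted p = 0.00269). F2R, 9.15 kb from IQGAP2, differed by -0.55 and 0.75, and neither passed (adjusted p = 0.284 and 0.156). UBE2G1, 20.4 kb from SPNS3, fell by 0.97 with Salmonella (adjusted p = 6.71e-04), and RCN2, 104 kb from TSPAN3, fell by 1.36 (adjusted p = 2.75e-05). RCN2 differed by -0.01 with the sponge over Salmonella. CMTM8, 211 kb from OSBPL10, fell by 1.30 (adjusted p = 0.00656). Its difference of 0.67 with the sponge did not pass (adjusted p = 0.140) and passed without Salmonella replicate 3 (0.99, adjusted p = 0.0289).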

How the data were processed

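The deposited table held 1 log2 value for every gene symbol in every library, as made by the authors. The submitters' processing notes name Bowtie, R 3.4.2 and Sscrofa11.1. How reads were counted, normalized and filtered is not given in the sources used here, and the logarithm was read as base 2. Since the table has no counts, the count models and pseudocount planned for other units were left out.

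All 12 libraries entered 1 fit of group means with limma 3.58.1 (R 4.3.3) over 7480 genes, with a variance trend. A gene was called at an adjusted p (Benjamini-Hochberg) under 0.05. The fit was checked on simulated data. The 8 genes, the gene lists and the alternatives were chosen with earlier results of these data known. Named genes were the 8, their relatives, up to 4 further genes of each list with the smallest F-test p, the nearest genes by correlation and the neighbours within 1 Mb. Of the 7480 symbols, 399 were in neither pig gene table. Sequences and promoters were not analysed here, and some genes that this rule names are not reported here. Alternatives were median centring, quantile normalization, a mean of at least 5, no trend, robust moderation, library weights, only the compared groups, a replicate block and each library left out.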

Additional observations from a re-analysis of the deposited data

Results flagged for a closer look

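In 8 of 132 groups of 4 values, from 44 genes, 1 library stood far from the other 3, and chance flags about 1 in 20 such groups. Of the 8 genes only SPNS3 was among them, where Salmonella replicate 1 was high at 5.15 and the others ran from 4.051 to 4.224. The same library was high for SWAP70, at 7.991 against 7.518 to 7.571. Sponge plus Salmonella replicate 1 was high for PLA2G1B, at 5.361 against 4.519 to 4.648. In control libraries, replicate 1 was low for PTGS2, at 4.38 against 5.533 to 5.64, and high for CXCR5, at 9.771 against 8.712 to 8.844. Control replicate 3 was high for UQCRH, at 6.112 against 4.671 to 4.828, and for CACNB4, at 4.977 against 4.37 to 4.421. Control replicate 4 was low for PLA2G2E, at 4.348 against 4.414 to 4.417.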

How the results depend on the processing

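The 20 alternatives were run for the difference of each of the 8 genes in each comparison and for the 3 counts of called genes, and none changed the sign of a difference of the 8 genes except that of OSBPL10 against control (-0.10 to 0.11). Each count stayed within 1.5 times its main value. With each library left out in turn, 1991 to 2624 genes differed between Salmonella and control, 1325 to 2013 between sponge plus Salmonella and Salmonella, and 2441 to 3139 between sponge plus Salmonella and control. Median centring moved the split between higher and lower calls to 965 and 1778 from 1175 and 1338 with Salmonella, and to 781 and 1109 from 888 and 985 with the sponge over Salmonella. Its split for sponge plus Salmonella against control was 1062 and 2569. The replicate block gave 2371, 1706 and 2907 genes.

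For sponge plus Salmonella against control, CACNA2D3 differed by -1.03 with library weights, by -0.89 with only the libraries of the 2 groups and by -0.89 with the replicate block, and ranged from -1.16 to -0.71 with 1 library left out. OCIAD2 ranged from 1.06 to 1.5. For sponge plus Salmonella against Salmonella, OLIG1 differed by 1.39 with library weights and ranged from 0.61 to 1.42 with 1 library left out. For Salmonella against control, OCIAD2 differed by -1.16 with only the libraries of the 2 groups and ranged from -1.54 to -0.82. The cause of these changes was not tested. The replicate numbers showed no clear pairing of the libraries, although this check cannot exclude one. Of 12 same-numbered pairs 2 had deviations correlated above 0.1 (range -0.36 to 0.377), and 3 of 12 libraries correlated best with their own number. In a block, OSBPL11 did not pass with the sponge over Salmonella (0.91, adjusted p = 0.0519).

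The number of group means at a low level was 3, or 2 with the 5th percentile. The depth behind low values is unknown, and 4 libraries a group and the tied values of the sponge plus Salmonella columns limit the precision.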
